A study of Fukomys damarensis and Heterocephalus glaber and Cavia porcellus with 28 samples.

Results

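Liver gene expression of the naked mole-rat was set against that of the mouse. The naked mole-rat group held 4 livers from male animals aged 13 to 17 months, and the mouse group held 2 livers from male animals aged 2 months. The labels name no treatment and no altered gene for these 6 samples; strain, breeding status, diet and time of day are not given in the sources used here. Each sample carries the name of its own animal. The spread behind the tests also used 5 Damaraland mole-rat livers, 1 of them from a female, aged 36 to 48 months, and 3 guinea pig livers from males aged 2.3 months. RNA depleted of ribosomal RNA was sequenced, and its reads were reported under mouse gene identifiers. Genes were chosen by a rule on abundance that names no direction: the mean over the 6 libraries had to lie at least 1 above the minimum of the deposited liver table. Of 13928 genes in that table, 10664 met the rule and 3264 did not. The last gene inside was Fam71e1 with a mean of 5.291, and the first outside was Cntnap1 with 5.289. The series holds 28 samples in all, hearts and livers of these 4 species, of which these 6 livers are described here.

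The liver is the organ that makes most plasma proteins, bile acids, urea and circulating lipoproteins, and it stores and releases glucose. Hepatocytes do most of this work, and they also oxidise and conjugate foreign compounds. The naked mole-rat is a small African rodent that lives underground in low oxygen and lives far longer than the mouse. Species, age and every other difference in how the animals were kept cannot be told apart in this comparison.

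Expression values follow a log2-like scale as deposited, whose minimum, 4.29, stands for 0 reads. A doubling moved the value by 0.97 from 1000 scaled reads but by only 0.39 from 10, so differences of rare genes are compressed. Scaled reads are the whole reads recovered from the values, divided by the size factor of the library, and they are not corrected for gene length. A difference is the naked mole-rat mean minus the mouse mean with its limma standard error (SE). A gene was called when its Benjamini-Hochberg adjusted p was under 0.05 and its absolute difference was at least 1. Library values are given in the order of replicates 1 to 4 for the naked mole-rat and 1 to 2 for the mouse. Levels are compared between species for the same gene and not between genes.

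Total recovered reads were 12359041 to 20686892 in the naked mole-rat livers and 11220505 to 18366998 in the mouse livers. The hepatocyte label held in every library: albumin (Alb) ranked 1 in all 6, and the other hepatocyte markers in the table were all read in each group. Alb took 8.23% to 15.5% of reads in the naked mole-rat livers and 5.92% to 6.76% in the mouse livers. The 10 most abundant genes took 19.5% to 26.9% of reads in the former and 14.5% to 15.7% in the latter, so the rest of the transcriptome had the smaller share in the naked mole-rat.

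The livers of the species differed in a large part of the genes measured. Of 10664 genes tested, 4554 were called, or 42.7%: 2358 were higher in the naked mole-rat (22.1%) and 2196 were lower (20.6%). The median difference over all genes was 0.05, with quartiles of -0.81 and 0.88. The difference reached 2 in either direction for 1656 called genes and 4 for 294 (159 higher and 135 lower). Among the called genes, 13 had libraries of the species that overlapped. For all genes tested, 72.8% had no overlap between the 4 and the 2 libraries. With 4 livers against 2 there are 15 splits, so an exact permutation test of a single gene cannot give a two-sided p below 0.0667, and the calls rest on the spread shared over all 14 livers of the series. The balance of directions depended on the scaling and the filter. It was 2540 higher and 2033 lower with libraries centred on their medians, and 2234 and 2215 with quantile normalisation. The abundance rule gives the naked mole-rat 4 of 6 votes; with the mean of the species means in its place, an alternative chosen after seeing the data, the counts were 2268 higher and 2270 lower, and with both species at least 1 above the minimum they were 1741 and 1925.

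**Figure D1:**
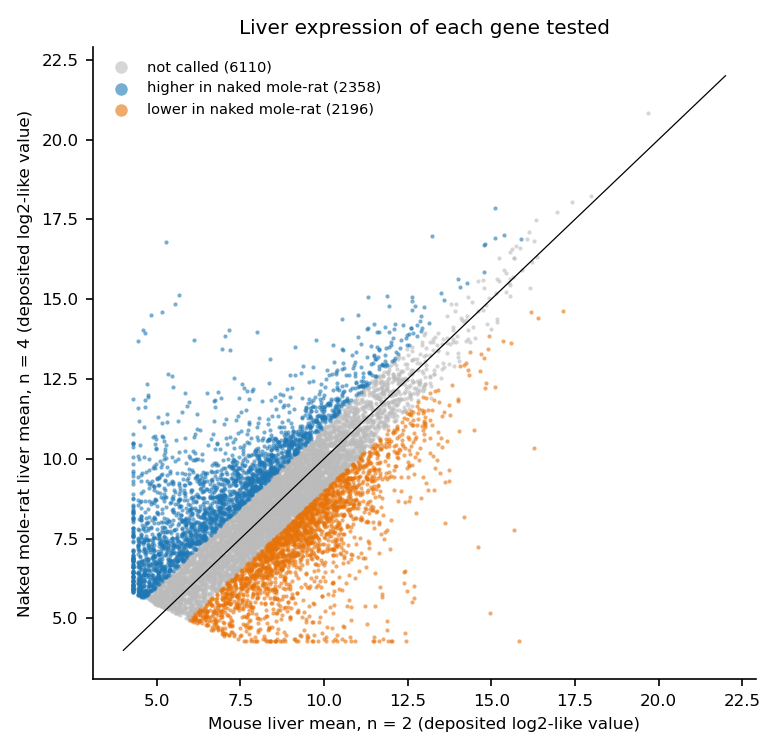
Mean value of each of 10664 genes in mouse liver (horizontal axis, n = 2) and naked mole-rat liver (vertical axis, n = 4), both on the deposited log2-like scale. Blue points are the 2358 genes called higher in the naked mole-rat, orange points the 2196 called lower, and grey points were not called; genes lying along the lower left edges are at or near the table minimum in 1 species.

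Among called genes that were well expressed in both species and did not overlap, 2908 in all, those with the largest positive differences included several enzymes and membrane proteins. Acsm2, a mitochondrial medium-chain acyl-CoA synthetase, was 14.05, 14.13, 14.12 and 13.89 in the naked mole-rat livers and 6.66 and 7.67 in the mouse livers. The libraries of the species did not overlap, with a difference of 6.88 (SE 0.26; limma adjusted p 4.28e-13). Pck2 encodes the mitochondrial form of phosphoenolpyruvate carboxykinase, which feeds gluconeogenesis. It was 13.46, 13.39, 13.31 and 13.51 in the naked mole-rat livers and 7.24 and 7.15 in the mouse livers, a difference of 6.22 (SE 0.25). Every naked mole-rat liver lay more than 5 above both mouse livers for Pck2. The tetraspanins Cd63 and Tspan3, proteins of lysosomal and other membranes, differed by 6.48 and 6.81. Mean scaled reads of Cd63 were 11308 against 92.4, and those of Tspan3 were 14586 against 95.6. Msrb2, a mitochondrial methionine sulfoxide reductase, was higher by 5.97 (SE 0.18), and Atp2b2, a plasma membrane calcium pump, by 5.57 (SE 0.22). Sorl1, a sorting receptor, was higher by 5.11.

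Among the largest negative differences of this class, beside Gstp1, Uox and Apoa2 described below, was Pigr, the receptor that carries immunoglobulin A into bile. Its values were 7.98, 7.93, 7.79 and 8.99 in the naked mole-rat livers and 14.45 and 13.90 in the mouse livers. All 4 naked mole-rat libraries were below both mouse libraries, with a difference of -6.002 (SE 0.42; limma adjusted p 1.45e-09). Nedd4, a ubiquitin ligase gene, and Deptor, an inhibitor of mTOR, were lower by 5.93 and 5.92 on this scale. Nudt7, a peroxisomal coenzyme A hydrolase, was lower by 5.61, the protocadherin Pcdh1 by 5.12, and Fam210a, a mitochondrial protein, by 4.62. Cnot1, the scaffold of the CCR4-NOT deadenylase, was 7.19, 7.23, 7.10 and 6.71 in the naked mole-rat livers and 11.37 and 11.95 in the mouse livers. The Cnot1 means of the Damaraland mole-rat and guinea pig livers, 12.15 and 11.59, were near that of the mouse. Ulk2, a kinase that starts autophagy, was lower by 4.55. Trp53inp2, an autophagy and nuclear receptor cofactor, was lower by 4.82.

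A second class of called genes had 1 species within 0.5 of the table minimum: 361 such genes were near the minimum in mouse and 120 in the naked mole-rat. They met the abundance rule largely through the other species. The naked mole-rat gives 4 of the 6 libraries in that rule, so the counts of 361 and 120 are not comparable. Leading those near the minimum in mouse were Moxd1, a copper monooxygenase of the dopamine beta-hydroxylase family, Miox, which opens the ring of myo-inositol, and Dao, which oxidises D-amino acids. Moxd1 was 13.91, 13.94, 14.29 and 13.95 in the naked mole-rat livers and 4.90 and 4.29 in the mouse livers. Miox was 13.99, 14.70, 13.43 and 13.66 in the naked mole-rat livers and 4.64 and 4.68 in the mouse livers. Dao was 13.54, 13.54, 13.79 and 13.84 in the naked mole-rat livers and 4.29 and 4.57 in the mouse livers. The naked mole-rat livers had 16703, 16656 and 13129 mean scaled reads of these genes, and the mouse livers 1.77, 1.31 and 0.362. Ppp1r1a, an inhibitor of protein phosphatase 1, was higher by 7.62 with 2675 and 1303 mean scaled reads in Damaraland mole-rat and guinea pig liver. Calcoco2, an autophagy receptor gene, had 0 reads in both mouse livers against 3745 scaled reads, so it was at least 2781-fold higher, with 3 counts over the mouse livers as the floor.

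Since Miox is best known from kidney, kidney markers were examined, on a list written after these values were seen. Of 17 such genes in the table, the summed scaled reads ran from 1192 to 1305 in the naked mole-rat livers and from 35.4 to 35.5 in the mouse livers. Umod, Trpv5 and Fxyd2, which act in kidney tubules, had means of 877, 175 and 169 scaled reads in the naked mole-rat livers and 0 reads in the mouse livers. The other 14 genes, among them the tubule genes Slc12a1, Slc34a1, Aqp2 and Pax8, together had 16.9 to 53.7 scaled reads per naked mole-rat liver and 35.4 to 35.5 per mouse liver. The part of kidney RNA in these differences was not tested.

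The naked mole-rat livers had 0 reads for 37 of the genes tested, all of them called lower. The mouse livers had 0 reads for 121, of which 120 were called higher. Such genes met the abundance rule through the other species alone, so the rule fixed the direction of their differences. The naked mole-rat gives 4 of the 6 libraries in the rule, so 37 and 121 are not comparable. The 37 included genes that every cell uses. Ccnb1ip1, a ubiquitin ligase gene known from meiosis, had 60409 mean scaled reads in mouse liver and was at least 86307-fold lower, with 3 counts over the naked mole-rat livers as the floor. Damaraland mole-rat and guinea pig livers were also low for Ccnb1ip1, at 3.17 and 9.79 mean scaled reads, so the high value was that of the mouse. Rdx encodes radixin, which ties the cytoskeleton to the bile canaliculus membrane, Ndufa4 encodes a subunit of cytochrome c oxidase, and Rpl8 and Rps13 encode ribosomal proteins. They were read 5535, 4135, 4055 and 1203 times per scaled mouse library and not at all in the naked mole-rat livers. Rpl4, another ribosomal protein gene, had 3 reads in all over the 4 naked mole-rat livers. Of the 37 genes, 17 had at least 100 mean scaled reads in both Damaraland mole-rat and guinea pig liver. In the 3 naked mole-rat hearts, 20 of them had 0 reads and 32 had at most 3. How genes of the naked mole-rat were assigned to mouse identifiers is not given in the sources used here, and its part in these zeros was not tested.

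**Figure D2:**
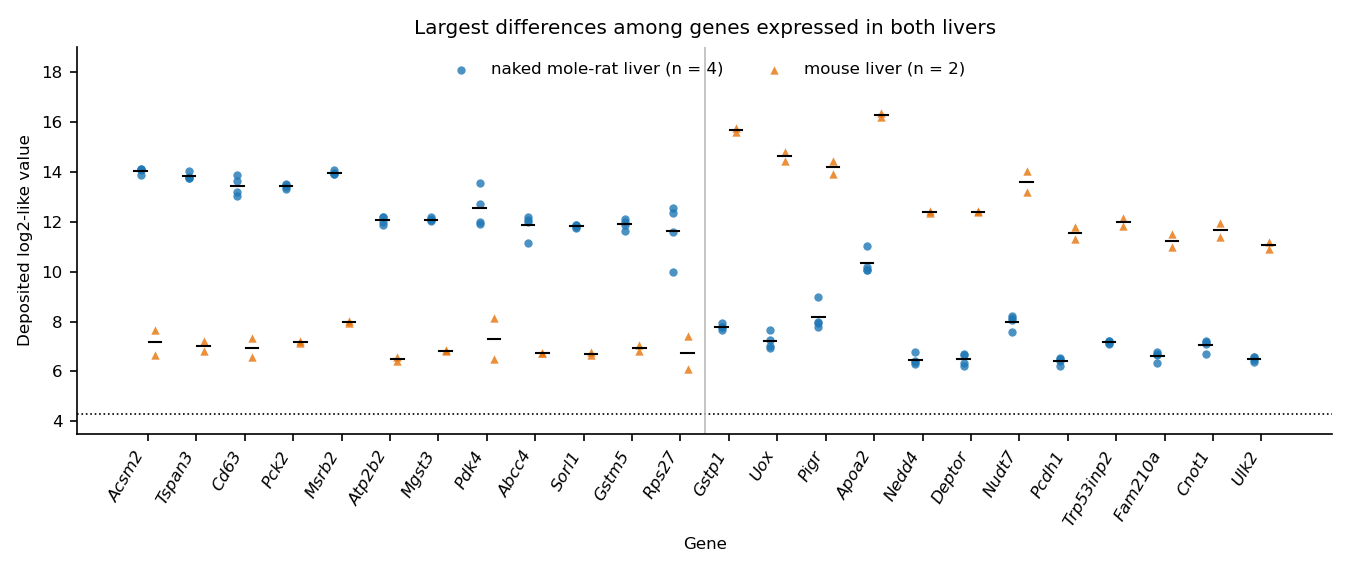
Values of 24 genes in the 4 naked mole-rat livers (blue circles) and the 2 mouse livers (orange triangles), on the deposited log2-like scale, with a bar at each group mean and the table minimum as a dotted line. The 12 genes on the left were the largest positive differences among genes well expressed in both species, and the 12 on the right the largest negative; only genes whose groups do not overlap were eligible.

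Enzymes of foreign compound metabolism held some of the widest gaps in the liver. Of 28 genes of oxidation tested, 12 were higher and 7 lower (67.9% called against 42.7% over all genes), with a median difference of 0.70. Cyp1a1, a cytochrome P450 inducible through the aryl hydrocarbon receptor, was 15.55, 14.52, 15.39 and 15.11 in the naked mole-rat livers and 5.73 and 5.58 in the mouse livers. The difference was 9.49 (SE 0.47), and the other means were 12.86 in Damaraland mole-rat and 13.69 in guinea pig. Maoa, which breaks down serotonin and noradrenaline, was higher by 4.41. Cyp2f2 went the other way, with 5.55, 5.05, 5.07 and 5.07 in the naked mole-rat livers and 14.73 and 15.16 in the mouse livers. The Cyp2f2 difference was -9.76, and Damaraland mole-rat liver was likewise low at 5.16 while guinea pig was 12.06. Cyp4v3, a fatty acid hydroxylase, was lower by 3.15. Cyp2e1, which oxidises ethanol, had a difference of 1.13 (limma adjusted p 0.56) and was not called, though the species did not overlap. The spread behind that p included the Damaraland mole-rat livers, with an SD of 3.83 beside 0.47 in naked mole-rat and 0.55 in mouse. With the 6 livers alone Cyp2e1 was called (1.13, limma adjusted p 0.014).

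Among conjugation and efflux genes the counts were 6 higher and 8 lower of 19, or 73.7%. Gstp1, a glutathione S-transferase of the pi class, was 7.77, 7.93, 7.68 and 7.77 in the naked mole-rat livers and 15.75 and 15.58 in the mouse livers. It had 52003 mean scaled reads in mouse against 184 in the naked mole-rat, 268 in Damaraland mole-rat and 169 in guinea pig. Near-identical copies of Gstp1 lie in the mouse genome, and how their shared reads were divided is not given in the sources used here. Sult1d1, a sulfotransferase, was lower by 6.37. The glutathione transferases Gstm5 and Mgst3 were higher by 4.97 and 5.25, and Abcc4, an efflux pump of the basolateral membrane, by 5.12. Abcc4 was 12.08, 11.99, 12.20 and 11.15 in the naked mole-rat livers and 6.73 and 6.72 in the mouse livers. All 4 naked mole-rat livers were above both mouse livers for these 3 genes.

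Antioxidant genes, many of them targets of the transcription factor NRF2, leaned lower in the naked mole-rat: 13 of 33 tested were lower and 6 higher (57.6% called), and the median difference was -0.78. Both subunits of glutamate-cysteine ligase, which limits glutathione synthesis, were in the lower group. Gclm was 8.61, 8.36, 8.02 and 8.26 in the naked mole-rat livers and 12.79 and 12.68 in the mouse livers. Gclc was 9.18, 9.22, 9.99 and 9.38 in the naked mole-rat livers and 12.74 and 13.16 in the mouse livers. The species did not overlap for either subunit, and the differences were -4.43 (SE 0.31) and -3.51 (SE 0.24). The peroxiredoxins Prdx1 and Prdx2 were lower by 4.09 and 4.38, and the methionine sulfoxide reductase Msrb1 by 3.77. For Prdx1, Damaraland mole-rat liver was at 12.97, near the mouse mean of 13.12. Genes called higher included Nqo1, a quinone reductase and classic NRF2 target, at 9.99, 9.83, 9.16 and 9.07 in the naked mole-rat and 6.42 and 6.44 in mouse. The Nqo1 difference was 3.09 (SE 0.24). Hmox1, which breaks down haem, was higher by 2.83. Nfe2l2, which encodes NRF2, and Keap1, its inhibitor, had differences of 0.79 and 0.89 and were not called. Catalase (Cat) and cytosolic superoxide dismutase (Sod1) were also not called, at -0.86 and 0.72.

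The widest positive difference of the genes named here was that of a secreted protein. A2m encodes alpha-2-macroglobulin, a plasma protease inhibitor. Its values were 16.94, 16.81, 16.45 and 16.93 in the naked mole-rat livers and 5.57 and 4.96 in the mouse livers. The naked mole-rat livers held 113803 mean scaled reads and the mouse livers 10.4, a difference of 11.52 (SE 0.40; limma adjusted p 1.37e-13), while Damaraland mole-rat and guinea pig livers had 65303 and 29089.7. Of 22 carrier and acute-phase genes tested, 8 were higher and 2 lower (45.5%). Itih3, an inter-alpha-trypsin inhibitor heavy chain that binds hyaluronan, was higher by 3.75, and Apcs, serum amyloid P, by 3.54. The hormone carriers went apart: Serpina7, which binds thyroxine, was higher by 2.51, and Serpina6, which binds corticosteroids, was lower by 3.04. Alb was 20.87, 21.33, 20.83 and 20.24 in the naked mole-rat livers and 19.77 and 19.59 in the mouse livers, a difference of 1.14 (limma adjusted p 0.0581) that was not called, and transthyretin (Ttr) differed by -0.80 without a call.

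Coagulation genes had 9 higher and 2 lower of 23 (47.8%). Plat, the tissue type of plasminogen activator, which starts the dissolving of clots, was 10.77, 10.80, 10.29 and 10.64 in the naked mole-rat livers and 4.99 and 4.96 in the mouse livers. Plau, the urokinase type, was higher by 2.43, and Plg, their substrate, was 0.40 and not called. Pros1, the anticoagulant protein S, was higher by 2.44 and factor V (F5) by 1.68, while Proz, protein Z, was lower by 3.15. Complement genes divided 5 higher and 4 lower of 22 (40.9%, near the share of all genes). C8a of the membrane attack complex and the lectin pathway protease Masp2 were lower by 2.15 and 1.95; C7, C1qc and vitronectin (Vtn) were higher by 2.06, 1.96 and 1.82. C3 had a difference of 0.79 and was not called.

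The main apolipoproteins of high-density lipoprotein, Apoa1 and Apoa2, were lower in the naked mole-rat. Apoa1 was 14.04, 14.56, 14.49 and 15.46 in the naked mole-rat livers and 17.26 and 17.03 in the mouse livers. Apoa2 was 10.05, 11.01, 10.07 and 10.19 in the naked mole-rat livers and 16.21 and 16.34 in the mouse livers. The differences were -2.50 (SE 0.35) and -5.94 (SE 0.37). Damaraland mole-rat liver had an Apoa2 mean of 16.23 beside 16.28 in mouse, and guinea pig liver had 12.21. Apoa5 and Apoc4, of triglyceride-rich particles, were lower by 3.16 and 4.41, and Apoc1 was higher by 1.92. In the whole group of 17 genes, 6 were lower and 1 higher (41.2%), with a median of 0.27 that became -0.24 under quantile normalisation. Apoe had a difference of 0.27 and was not called.

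Lipid storage genes included some of the lowest values against mouse. Plin2, the coat protein of hepatocyte lipid droplets, was 8.84, 8.89, 9.37 and 9.01 in the naked mole-rat livers and 13.18 and 13.40 in the mouse livers. Mgll, which splits monoglycerides, was 7.38, 7.67, 7.88 and 6.97 in the naked mole-rat livers and 11.77 and 11.80 in the mouse livers. Both were lower in all 4 naked mole-rat livers, by 4.26 and 4.31. Lipoprotein lipase (Lpl) and hormone-sensitive lipase (Lipe) were lower by 3.08 and 1.52, and Plin3, another droplet coat protein, was higher by 2.08. Of 16 genes in that group 4 were higher and 5 lower (56.2%). Adipose triglyceride lipase (Pnpla2), at 0.41, was not called. Fatty acid synthesis genes leaned lower, with 9 lower and 2 higher of 23 (47.8%) and a median of -0.68. Srebf1, the transcription factor that drives these genes, was lower by 1.87, as were malic enzyme (Me1, 2.44), the acyltransferase Agpat2 (1.95), the elongase Elovl2 (3.16) and the desaturase Fads2 (1.95). Without mouse replicate 2 the Srebf1 difference was -1.53 with a limma adjusted p of 0.12, which is not a call. Fatty acid synthase (Fasn) was 13.92, 15.25, 14.79 and 15.41 against 13.41 and 14.17, which missed the call (limma adjusted p 0.0661).

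Fatty acid oxidation and ketone genes had 4 higher and 4 lower of 26 (30.8%, beside 42.7% of all genes). Echs1, the short-chain enoyl-CoA hydratase, was higher by 2.83, and Ehhadh, the peroxisomal bifunctional enzyme, by 1.40. The mitochondrial carnitine carrier Slc25a20 was lower by 1.58 and Acadvl, for very long chains, by 1.57. Cpt1a, the gate of mitochondrial oxidation, had -1.30 (limma adjusted p 0.0527). The fasting hormone Fgf21 had 1.21 and the receptor Ppara 0.32, and neither was called.

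Of 22 bile acid genes tested, 10 were higher and 3 lower (59.1%), with a median of 0.95. Cyp7a1, the rate-limiting enzyme of the classic pathway, was 11.14, 12.22, 12.35 and 11.94 in the naked mole-rat livers and 9.54 and 10.37 in the mouse livers. Its difference was 1.96 (SE 0.62; limma adjusted p 0.0106), with no overlap between the species. Without mouse replicate 1 it was 1.54 with a limma adjusted p of 0.128, which is not a call. Cyp27a1, which starts the alternative pathway, was higher by 2.04, Cyp39a1, an oxysterol hydroxylase, by 3.43, and Acox2, which shortens the side chain, by 2.77. The export transporter subunit Slc51b was 9.28, 9.54, 8.62 and 9.31 in the naked mole-rat livers and 4.99 and 5.07 in the mouse livers. Hsd3b7, an early step of synthesis, was lower by 2.99, and Abcg5, part of the sterol exporter into bile, was lower by 2.88, while its partner Abcg8 had 0.28 and was not called. The canalicular pump Abcb11 was also not called, at 0.16.

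Cholesterol synthesis had 10 higher and 4 lower genes of 24 (58.3%), median 0.83. The enzymes that make squalene and its epoxide led: Fdft1 was 11.97, 12.46, 12.83 and 12.16 in the naked mole-rat livers and 9.72 and 10.09 in the mouse livers, and Sqle was higher by 1.998, or by 1.30 without mouse replicate 1. The later enzymes Ebp and Sc5d were lower by 1.82 and 1.73, and so was Insig2, which holds the sterol sensor in the endoplasmic reticulum, by 2.50.

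In carbohydrate metabolism the widest gap was that of a glycogen synthase. Gys1, the synthase known from muscle, was 14.05, 14.23, 12.91 and 13.75 in the naked mole-rat livers and 6.16 and 6.08 in the mouse livers. Its difference was 7.62 (SE 0.40), and replicate 3 was the lowest of the naked mole-rat livers. Muscle and fat markers summed to 2449.5 to 7488 scaled reads in the naked mole-rat livers and 487 to 919 in the mouse livers. Without Myom1 the sums were 501 to 799 and 454 to 897, which overlap. Of these markers Myom1 was higher by 5.74, and Ckm and Acta1 had 0.28 and -0.21 without a call. The part of muscle RNA in the Gys1 value was not tested. The liver synthase Gys2 was 12.05, 11.97, 12.18 and 11.81 in the naked mole-rat livers and 11.17 and 11.86 in the mouse livers, a difference of 0.48 that was not called. Liver glycogen phosphorylase (Pygl) was not called either, at -0.37. Pgm2, which interconverts sugar phosphates, was higher by 3.41, and Gckr, a regulatory protein of sugar phosphorylation, by 2.25.

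Mitochondrial Pck2 was the higher gene described above. Cytosolic Pck1 was 13.39, 13.53, 13.64 and 14.87 in the naked mole-rat livers and 14.21 and 15.67 in the mouse livers, lower by 1.09 (SE 0.47; limma adjusted p 0.0486). That call was lost without mouse replicate 2, where the difference was -0.36 (it was -1.82 without mouse replicate 1), and without naked mole-rat replicate 1, 2 or 3, where it was -0.93, -0.98 and -1.02 with limma adjusted p of 0.111, 0.0999 and 0.0879. It was also lost with libraries centred on their medians (-1.01, limma adjusted p 0.0655), without the filter on low values and with the 6 livers alone (limma adjusted p 0.0613 and 0.0507). Pyruvate carboxylase (Pcx) was lower by 2.83 and the glucose-6-phosphatase catalytic subunit (G6pc) by 1.53. Scaled reads of Pck2 were 10921 and 110.1 in naked mole-rat and mouse and 8739.8 in guinea pig. Those of Pck1 were 16273, 35609 and 13066 in the same order. The group of gluconeogenesis and glycogen genes had 9 higher and 4 lower of 26 (50.0%).

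Glycolysis had 6 higher and 5 lower of 27 genes (40.7%, near the share of all genes). The pyruvate dehydrogenase kinases, which shut the entry of pyruvate into the citric acid cycle, moved apart. Pdk4 was 12.70, 13.57, 11.99 and 11.90 in the naked mole-rat livers and 8.16 and 6.48 in the mouse livers. Pdk1 was 7.95, 7.83, 7.43 and 8.47 in the naked mole-rat livers and 10.51 and 10.30 in the mouse livers. The former was higher by 5.22 (SE 0.49) and the latter lower by 2.48 (SE 0.27). Isozymes that are minor in liver also differed, with Eno2 higher by 2.67 and Aldoc lower by 3.06, and Pgam1 was lower by 2.22. In fructose and polyol metabolism 1 of 9 genes was called (11.1%): Sord, sorbitol dehydrogenase, was lower by 1.43. Ketohexokinase (Khk) was -0.66 and the fructose transporter Slc2a5 0.90 (limma adjusted p 0.159), and neither was called.

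Among genes of nitrogen disposal, carriers were called lower and the first enzyme was not called. Cps1, the first enzyme of the urea cycle, was 15.98, 16.22, 16.51 and 16.60 in the naked mole-rat livers and 16.25 and 16.49 in the mouse livers. It did not differ beyond the spread (-0.04, SE 0.26). The mitochondrial carriers of the cycle, Slc25a15 for ornithine and Slc25a13 for aspartate and glutamate, were lower by 2.59 and 2.11. Slc25a15 was 9.41, 9.70, 10.37 and 10.18 in the naked mole-rat and 12.45 and 12.55 in mouse. Alanine transaminase Gpt2 was lower by 2.22 and glutamine synthetase (Glul) by 1.70, while Rhbg, an ammonia channel, was higher by 1.99. Over the group, 3 genes were higher and 7 lower of 16 (62.5%), with a median of -0.77. Otc and Ass1 were not called, at -0.69 and -0.22.

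Amino acid breakdown had 9 higher and 9 lower of 32 genes (56.2%). Tryptophan degradation held both extremes of the pathway: Tdo2, its first enzyme, was 11.20, 11.90, 9.93 and 10.56 in the naked mole-rat livers and 14.25 and 14.69 in the mouse livers, and Acmsd, which steers the pathway away from NAD synthesis, was 13.07, 13.48, 13.36 and 12.54 in the naked mole-rat livers and 8.25 and 8.51 in the mouse livers. Tdo2 was lower by 3.57 and Acmsd higher by 4.73. Serine dehydratase (Sds) was lower by 4.57, with guinea pig liver also low at 6.34 and Damaraland mole-rat liver at 10.52. Proline dehydrogenase (Prodh) was lower by 2.93, and Mccc2 of leucine breakdown was higher by 2.48. Tyrosine aminotransferase (Tat) had 0.24 and was not called. In the methionine, folate and choline cycle 5 were higher and 5 lower of 21 (47.6%). Ahcy, which clears S-adenosylhomocysteine, was lower by 2.86, sarcosine dehydrogenase (Sardh) by 2.60 and Mtrr, which reactivates methionine synthase, by 2.21, whereas Cth, which makes cysteine, was higher by 2.31 and Bhmt2, a methyltransferase, by 1.74. Mat1a, the hepatic S-adenosylmethionine synthetase, was not called (-0.01).

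Genes known in the mouse for their place in the lobule were compared as lists. Of 15 periportal genes 9 were lower and 3 higher (80.0% called, median -1.10), including Cyp2f2 and Sds above, the histidine ammonia-lyase Hal (-1.89) and E-cadherin (Cdh1, -2.25), against Hsd17b13, a droplet-bound dehydrogenase, at 2.09. Of 16 pericentral genes 6 were higher and 4 lower (62.5%, median 0.73). Among the higher ones were Cyp27a1 and Cyp7a1, described above with the bile acid genes, at 2.04 and 1.96. The glutamate transporter Slc1a2 was 5.66, 4.67, 4.71 and 4.68 in the naked mole-rat livers and 11.85 and 11.94 in the mouse livers, a difference of -6.96, with Damaraland mole-rat liver also low at 4.99 and guinea pig at 11.86. Ornithine aminotransferase (Oat) was lower by 1.88. Axin2, a target of Wnt signalling, was not called (0.46). Bulk tissue cannot tell a changed zone from a changed level per cell, here or in the results on cell types below.

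Urate oxidase (Uox), which most mammals use to break down uric acid and which apes have lost, was 7.28, 6.94, 7.66 and 7.03 in the naked mole-rat livers and 14.78 and 14.45 in the mouse livers. It was lower by 7.39 (SE 0.23), with 116 mean scaled reads against 25246. The Damaraland mole-rat had 6.1 and the guinea pig 2629. Abcg2, which exports urate, was lower by 4.67, while Ada and Gda, adenosine and guanine deaminases upstream of urate, were higher by 3.08 and 1.95, and xanthine dehydrogenase (Xdh) was not called (-0.60). Gsto1, a dehydroascorbate reductase, was higher by 2.74, and Rgn, of vitamin C synthesis, had 0.11 without a call. The list of vitamin C and uric acid genes had 4 higher and 2 lower of 11 (54.5%). Gulo was not analysed here. Iron and haem genes had 6 higher and 3 lower of 24 (37.5%). Fech, the last enzyme of haem synthesis, was lower by 2.33, and Ncoa4, which releases iron from ferritin, by 1.46. Blvrb, a biliverdin reductase, was higher by 1.90, and Slc39a14, an iron and zinc importer, by 1.65. Ceruloplasmin (Cp), at -0.11, was not called.

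Of 33 nuclear genes of respiratory complex I, 3 were higher and 4 lower (21.2%), a balance that quantile normalisation turned to 4 and 3. Of 39 genes of the other complexes, 1 was higher and 9 were lower (25.6%, median -0.53). Ndufab1, an acyl carrier subunit, was 4.61, 4.29, 4.29 and 4.68 in the naked mole-rat livers and 10.08 and 8.90 in the mouse livers. Ndufab1 had 3 reads in all over the 4 naked mole-rat livers, and its difference was -6.78 in heart. Cox7c and Atp5e, of complexes IV and V, were lower by 4.08 and 3.92 in liver and by 5.02 and 5.14 in heart. Uqcr10 of complex III and cytochrome c (Cycs) were lower by 2.39 and 2.27, and Cox8a was higher by 2.10. Of 12 genes encoded by mitochondrial DNA, mt-Nd2, mt-Nd3 and mt-Nd4 were higher by 2.75, 2.81 and 1.62, mt-Nd1 was lower by 1.67 and the other 8 were not called. The share called was 33.3%, beside 42.7% of all genes. Without mouse replicate 2, mt-Nd4 was 1.08 with a limma adjusted p of 0.0716 and was not called. The mt-Nd3 difference was 4.38 without mouse replicate 1 and 1.23 without mouse replicate 2. These 12 genes together took 4.93% to 7.08% of reads in the naked mole-rat livers and 2.88% to 5.74% in the mouse livers.

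Cytosolic ribosomal protein genes were more often higher than lower. Of 69 tested, 35 were higher and 3 lower (55.1% called), with a median of 1.003, against 0.05 over all genes. Together they took 1.54% to 2.19% of reads in the naked mole-rat livers and 1.14% to 1.36% in the mouse livers, with no overlap. The 3 lower genes were Rpl4, Rpl8 and Rps13, at or near 0 reads in the naked mole-rat as described above. Rps27 and Rpl12 were the highest at 4.87 and 4.31. Rps27 was 12.36, 12.55, 9.99 and 11.58 in the naked mole-rat livers and 7.40 and 6.09 in the mouse livers. Processed copies of ribosomal protein genes are common in mammalian genomes, so the reads of single members are uncertain, and their part in these values was not tested. Proteasome genes had 0 higher and 4 lower of 38 (10.5% against 42.7%). The lower ones were Psmb10 of the immunoproteasome (-2.13), Psmc4 (-1.29), Psmb6 (-1.06) and Psmd8 (-1.02). The last 2 stayed lower but under the size threshold of 1 with libraries centred on their medians (-0.99 and -0.95), with quantile normalisation (-0.99 and -0.91), without naked mole-rat replicate 1 (-0.99 for both), and without mouse replicate 2 for Psmb6 (-0.93) or mouse replicate 1 for Psmd8 (-0.89).

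Chaperones and the unfolded protein response had 6 higher and 8 lower of 37 (37.8%). Hsp90aa1, the inducible cytosolic HSP90, was 4.93, 4.67, 4.29 and 4.68 in the naked mole-rat livers and 11.30 and 12.47 in the mouse livers. It had 7 reads in all over the 4 naked mole-rat livers against means of 4056 scaled reads in mouse, 11119 in Damaraland mole-rat and 15822 in guinea pig. The constitutive Hsp90ab1 was 0.10 and not called. The stress sensor Ern1, its target Xbp1 and the co-chaperone Dnajc3 were lower by 2.94, 2.19 and 2.28, and the small heat shock protein Hspb1 was higher by 2.34. The endoplasmic reticulum chaperone Hspa5 was not called (-0.73).

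Growth factor genes held a further wide gap. Igf2, a fetal growth factor that the adult mouse liver largely silences, was 14.75, 14.98, 14.88 and 14.73 in the naked mole-rat livers and 6.05 and 5.02 in the mouse livers. The naked mole-rat mean was 29239 scaled reads and the mouse mean 19.1; Damaraland mole-rat and guinea pig livers had 4459 and 15447. The difference was 9.30 (SE 0.29; limma adjusted p 4.44e-14). Igf1, the main growth hormone target, was 13.83, 13.46, 13.82 and 13.44 in the naked mole-rat livers and 13.54 and 13.80 in the mouse livers and did not differ beyond the spread (-0.03, SE 0.27), and the growth hormone receptor (Ghr) was -0.71 without a call. Among the binding proteins of these factors, Igfbp1 and Igfbp3 were higher by 3.63 and 2.91 and Igfbp2 was lower by 2.42. The call of Igfbp2 was lost without either mouse library, at -2.36 and -2.48 with limma adjusted p of 0.0857 and 0.073. Igfbp1 was 12.65, 11.94, 12.17 and 13.71 in the naked mole-rat and 10.05 and 7.94 in mouse. The leptin receptor (Lepr) was higher by 2.23. The group as a whole had 6 higher and 3 lower of 24 (37.5%). Age differed between the groups and cannot be told apart from species here.

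**Figure D3:**
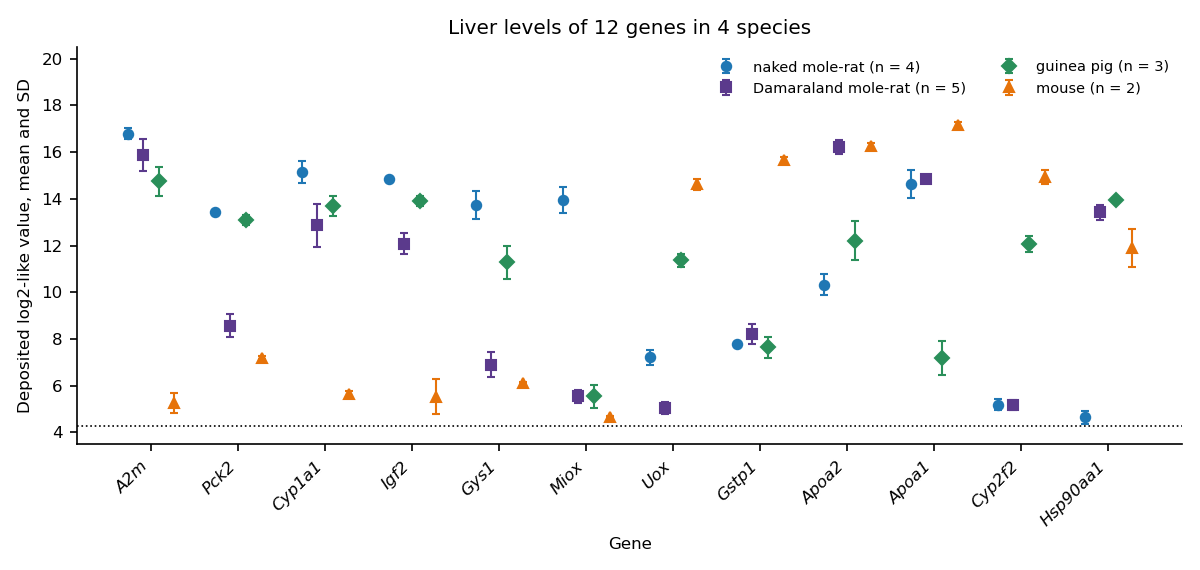
Species means of 12 genes in liver of the naked mole-rat (n = 4), the Damaraland mole-rat (n = 5), the guinea pig (n = 3) and the mouse (n = 2), on the deposited log2-like scale, with error bars of 1 SD. For A2m, Cyp1a1 and Igf2 the mouse mean is the lowest of the 4 species (the dotted line is the table minimum), whereas for Apoa2 and Gys1 the Damaraland mole-rat is nearer to the mouse than to the naked mole-rat.

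Hypoxia response genes had 3 higher and 5 lower of 20 (40.0%). Vhl, which marks hypoxia-inducible factor for destruction, was lower by 1.51, the asparaginyl hydroxylase Hif1an by 2.21 and the prolyl hydroxylase Egln3 by 1.77. Another prolyl hydroxylase, Egln2, had -0.67 and was not called. Vhl was 6.64, 7.27, 6.90 and 7.01 in the naked mole-rat livers and 8.36 and 8.58 in the mouse livers. P4ha1, a collagen hydroxylase, was lower by 1.85, and Ddit4, which restrains mTOR, was higher by 2.85. The factor subunit Hif1a (0.28) and the target Vegfa (0.26) were not called. In the hyaluronan and matrix group 8 were higher and 2 lower of 22 (45.5%). The hyaluronidase Hyal2 was lower by 2.07 and the collagen chain Col5a1 by 2.81, while Mmp2, a gelatinase, and Tnfaip6, a hyaluronan-binding protein, were higher by 2.44 and 2.10. Has2, a hyaluronan synthase, did not meet the abundance rule. The receptor Cd44 was -0.36 and not called.

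Regulators of p53 and the cell cycle had 4 higher and 8 lower of 23 (52.2%). Mdm2 and Mdm4, which restrain p53, were lower by 3.997 and 1.90, and Cdkn1a, the p53 target that encodes p21, was 8.07, 7.98, 9.08 and 8.71 in the naked mole-rat livers and 5.93 and 6.14 in the mouse livers. Cdkn1a was higher by 2.42 (SE 0.37), while Zmat3, another target, was lower by 2.11 and Trp53 was not called (0.52). Mdm2 was 5.01, 5.05, 4.89 and 4.96 in the naked mole-rat livers, close to the minimum. Its mean scaled reads were 4.56 there, 470 in mouse, 407 in Damaraland mole-rat and 372 in guinea pig liver, and its heart difference was -3.33. The part of gene assignment between species in the Mdm2 value was not tested. DNA repair genes had 11 higher and 5 lower of 43 (37.2%). Xrcc6, the Ku70 subunit of end joining, was 11.54, 11.80, 11.96 and 11.91 in the naked mole-rat livers and 8.05 and 8.23 in the mouse livers. Its partner Xrcc5 was -0.62 and not called. Ercc1, of nucleotide excision repair, and Neil1, a base excision glycosylase, were higher by 2.24 and 2.02, and Mgmt, which repairs alkylated guanine, was lower by 1.84.

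Clock genes had 4 higher and 8 lower of 21 (57.1%). Dbp and Hlf, output factors of the clock, were lower by 3.44 and 3.78, and Rora, an activator, by 2.90. Npas2, a partner of Arntl, and Cry1, a repressor, were higher by 4.42 and 3.15. Npas2 was 9.40, 9.18, 9.18 and 9.16 in the naked mole-rat livers and 5.33 and 4.29 in the mouse livers. Arntl had 1.06 and Per2 -1.25, and neither was called. The hour at which tissue was taken is not given in the sources used here, and it cannot be told apart from species. Thyroid and retinoid genes had 5 higher and 5 lower of 19 (52.6%). The thyroid hormone and amino acid transporter Slc16a10 was lower by 2.16, and the retinoic acid receptor Rarb was higher by 2.18.

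Transcription factors that define the hepatocyte had 0 higher and 5 lower of 16 (31.2%). Hnf4a was 13.69, 13.35, 13.31 and 13.30 in the naked mole-rat livers and 13.27 and 13.55 in the mouse livers, a difference of 0.002 (SE 0.20) that was not called. The lower factors were Creb3l3 (-1.95), Rxra (-1.81), Nr5a2 (-1.44), Onecut2 (-1.42) and Tcf7l2 (-1.19). Of the 11 hepatocyte markers 2 were higher, Ambp by 1.89 and Fgb by 1.002, and 0 lower (18.2%, beside 42.7% of all genes). With libraries centred on their medians 4 were higher, and with quantile normalisation 1 was higher and 1 lower. The Fgb call was lost without mouse replicate 1 or 2 (limma adjusted p 0.0517 and 0.0594), without naked mole-rat replicate 3 or 4 (0.92 and 0.98), with quantile normalisation (0.41), array weights (0.94), limma-voom (0.999) and the replicate block (0.84).

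Markers of the other liver cells were looked at by list. Summed scaled reads of 10 bile duct markers were 5741 to 7192 in the naked mole-rat and 3273 to 4451 in mouse. Epcam, a membrane protein of biliary epithelium, was 11.42, 11.32, 10.91 and 11.04 in the naked mole-rat livers and 5.90 and 5.38 in the mouse livers. Its mean scaled reads were 2290 against 19.4, so Epcam alone made up much of the gap between the sums. Sums without Epcam were not computed. Krt19 and Cftr were also higher, by 2.69 and 2.69, and Spp1, osteopontin, was lower by 3.93. Of 8 tested 4 were higher and 1 lower (62.5%). More bile duct cells and more RNA of these genes per cell cannot be told apart in bulk tissue.

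Sinusoidal endothelium markers had 6 higher and 1 lower of 13 (53.8%), and their sum was 13159 to 16998 against 8289.9 to 10333. Lyve1, Flt1, Oit3 and Stab2 were higher by 2.15, 1.30, 1.28 and 1.20, and Stab1, a scavenger receptor, was lower by 2.46. Without mouse replicate 1, Stab2 and Oit3 were 0.96 and 0.94, under the size threshold. Stellate cell and fibroblast markers had 4 higher and 3 lower of 13 (53.8%), with sums of 12337 to 17197 and 7766 to 8239. Pdgfrb, Acta2 and Ecm1 were higher by 1.98, 1.85 and 1.62, and the pericyte gene Rgs5 and the proteoglycan Dcn were lower by 3.56 and 2.56.

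Of 8 leukocyte and Kupffer cell markers 1 was higher and 1 lower (25%, beside 42.7% of all genes), and the sums were 2499 to 4683 and 3478 to 3802, which overlap. Cd163, the haemoglobin scavenger receptor of macrophages, had 0 reads in the 4 naked mole-rat livers against 354 mean scaled reads in mouse, at least 506-fold lower with 3 counts over the naked mole-rat livers as the floor. The lysosomal marker Cd68 was higher by 1.21, and Ptprc and Csf1r were not called (-0.15 and -0.06). Innate sensing and interferon genes had 3 higher and 3 lower of 21 (28.6%). Rsad2 and Ifit3, antiviral effectors, were lower by 2.45 and 1.80, and Stat2, Tlr3 and Tlr4 were higher by 1.99, 1.80 and 1.49.

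Of 3 erythroid markers 1 was called (33.3%, beside 42.7% of all genes). It was Alas2, of haem synthesis in red cells, lower by 3.78, and the sums of the markers were 779 to 1293 and 2046 to 2608. Among the muscle and fat markers 1 of 8 tested was higher and 1 lower (25%, beside 42.7% of all genes). Without Myom1 the sums were 501 to 799 and 454 to 897. Ucp1 was at 0 reads in both species, and Tnnt3 and Lep in mouse. The higher one, Myom1, a protein of the muscle M-band, was 10.85, 11.52, 12.78 and 11.48 in the naked mole-rat livers and 5.77 and 6.06 in the mouse livers, a difference of 5.74. Muscle creatine kinase (Ckm) and skeletal actin (Acta1) were not called (0.28 and -0.21), and Pparg, the fat cell receptor, was lower by 1.33. Without mouse replicate 1 Pparg was -0.96, under the size threshold.

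**Figure D4:**
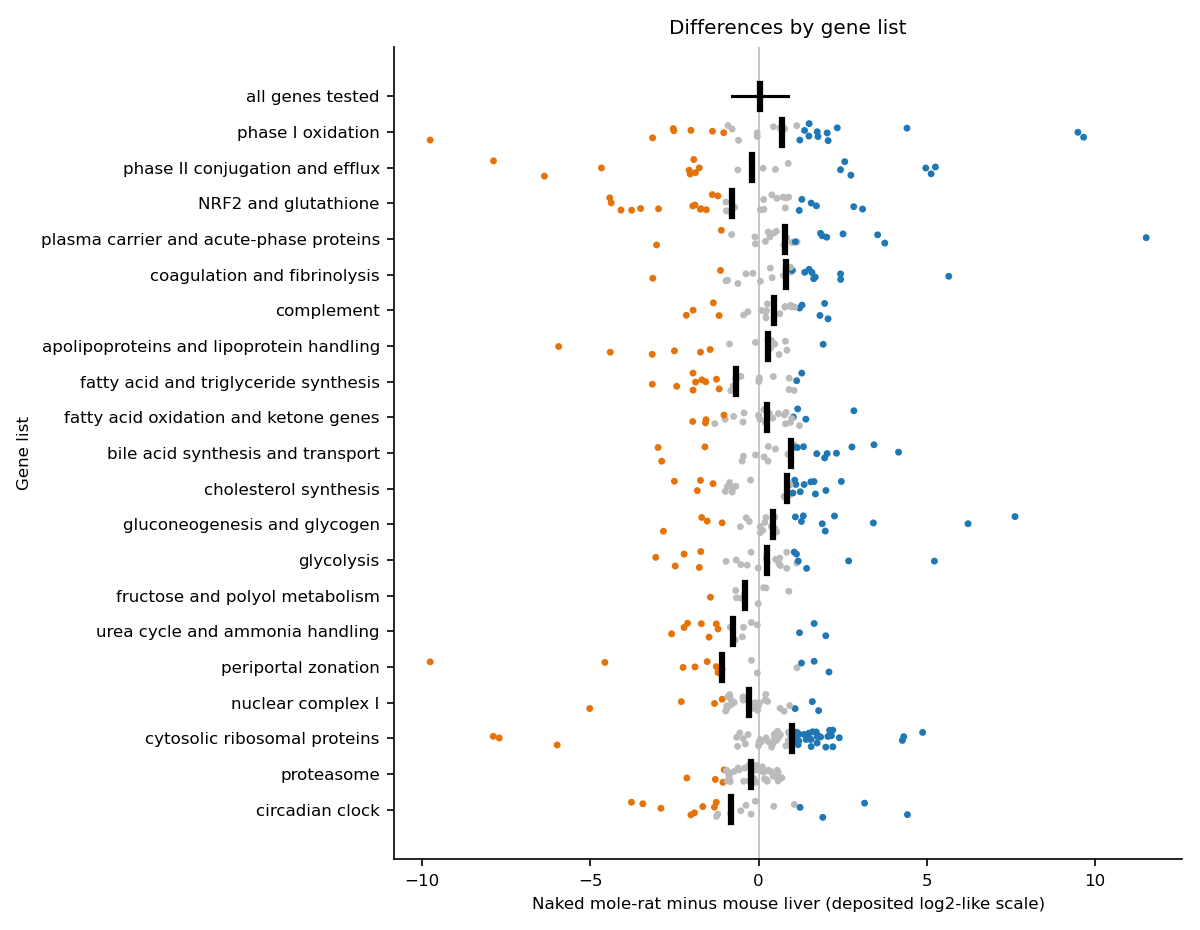
Differences between naked mole-rat and mouse liver for the members of 20 gene lists (1 point per gene tested, horizontal axis on the deposited log2-like scale, positive when higher in the naked mole-rat). Coloured points were called, grey points were not, black bars mark the median of each list, and the top row shows the median and quartiles of all 10664 genes. Few proteasome and fructose genes were called (10.5% and 11.1%), with list medians of -0.24 and -0.41. The medians of antioxidant, clock and periportal genes lie to the left and that of ribosomal protein genes to the right.

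The same comparison was made in heart, with 3 naked mole-rat hearts from males aged 13 to 17 months and 3 mouse hearts from males aged 2 months, so age and species cannot be told apart there either. These values were transformed in a table of their own. Naked mole-rat heart replicate 3 had 4089633 recovered reads, beside 19096882 to 26985779 in the other naked mole-rat and mouse hearts. The test called 4186 of 10659 genes (39.3%), 1997 higher and 2189 lower. Of 9982 genes tested in both tissues, 1871 were called in both with the same sign (860 higher and 1011 lower), which was 45.6% of the 4103 calls in liver and 48.9% of the 3826 in heart, and 247 were called with opposite signs. In the naked mole-rat 2 of the 4 livers came from animals that also gave a heart, as did 1 of the 2 mouse livers; without these livers 1860 genes had the same sign. Of genes near 0 in naked mole-rat liver, the heart differences were -6.91 for Rpl4, -6.69 for Rpl8 and -5.89 for Hsp90aa1. By contrast, Gys1 had 0.43 in heart, Myom1 -0.62, Pck2 0.06 and Gstp1 0.57, beside 7.62, 5.74, 6.22 and -7.88 in liver. Pdk4 was -3.92 in heart and 5.22 in liver, so it was called in both tissues with opposite signs. The tables were normalised separately, so differences are set side by side and not tested against each other.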

How the data were processed

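Total RNA depleted of ribosomal RNA was sequenced from 28 samples, and all 14 livers and 14 hearts enter the fits. The deposited values are on a log2-like scale, a variance-stabilised form of counts; the submitters' processing notes name cutadapt, Salmon 013.1, DESeq2 and the mouse build GRCm38, with no order or settings, and gene assignment between species is not given in the sources used here. Inverting the transformation gave whole reads for all values (tolerance 0.0001), which set the depth. Of the deposited columns, 26 name samples of other series and were not used. Samples were grouped by species and tissue from their labels.

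Main differences were fitted with limma 3.58.1 (R 4.3.3) on the deposited log2 values of all 14 livers, with 1 coefficient per species, a variance trend and Benjamini-Hochberg adjustment over 10664 genes; p-values measure the spread between these animals. Heart was fitted the same way. Alternatives were other filters, centring, quantile normalisation, voom on recovered reads, array weights, a replicate block, size thresholds of 0 and 2, and leaving out each library. On simulated data of the liver comparison (10253 genes), 34% of 2-fold and 99% of 4-fold changes were called and 0% of unchanged genes. A 2-fold change lies at the size threshold, and without that threshold 86% were recovered. The simulation changed only genes well read in mouse and gave every gene the same relative spread. Unchanged genes had equal means in both species, so the 0% is not an error rate for the real data.

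The genes and the 44 gene lists were chosen with earlier results of these data known. Named genes were the 12 largest differences in each direction among called genes whose species did not overlap and lay at least 2 above the minimum in both, the 5 largest in each direction with 1 species within 0.5 of it, up to 5 called members of each list, uncalled list members given by value, and a fixed set of liver genes. Kidney and stomach markers were added after values were seen. Results of some genes are not reported here.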

Additional observations from a re-analysis of the deposited data

Results flagged for a closer look

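Among the genes named in the report and 3 library measures (total reads, genes at 0 and the share of the 10 most abundant genes), 261 groups of 4 naked mole-rat livers were checked for 1 library whose gap to the nearest of the others was wide relative to the range. It was so for 18 genes, and chance alone flags about 1 in 20 such groups. In replicate 1 these were Cyp2f2 at 5.55 against 5.05 to 5.07, Hnf4a at 13.69 against 13.30 to 13.35, Npas2 at 9.40 against 9.16 to 9.18, Plau at 7.81 against 8.59 to 8.71, Slc1a2 at 5.66 against 4.67 to 4.71. In replicate 2 these were Abcg2 at 6.56 against 6.13 to 6.18, Apoa2 at 11.01 against 10.05 to 10.19, Ebp at 9.94 against 9.22 to 9.29, Sult1d1 at 4.83 against 4.29 to 4.29. In replicate 3 these were Hif1an at 8.05 against 7.04 to 7.19, Moxd1 at 14.29 against 13.91 to 13.95, Onecut2 at 9.35 against 9.91 to 9.94, Pygl at 13.72 against 13.13 to 13.21, Rxra at 11.498 against 11.08 to 11.10, Tspan3 at 14.02 against 13.76 to 13.79. In replicate 4 these were Cp at 13.44 against 13.95 to 14.04, Pck1 at 14.87 against 13.39 to 13.64, Pigr at 8.99 against 7.79 to 7.98.

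For 29 named genes the difference between naked mole-rat and mouse had one sign in every liver and the opposite sign in every heart. The named genes were chosen in part by the size of their difference, and the same count over all genes was not made. In liver alone, 72.8% of all genes tested had no overlap between the species, so the 29 are given as description. Whether liver and heart differ was not tested, since the tables were normalised separately. Higher in liver and lower in heart were, with the liver and then the heart difference, Acta2 (1.85 and -0.97), C1qc (1.96 and -1.25), Cd68 (1.21 and -1.09), Echs1 (2.83 and -1.19), Fdft1 (2.46 and -0.62), Gsto1 (2.74 and -3.32), Myom1 (5.74 and -0.62), Nqo1 (3.09 and -1.71), Pdk4 (5.22 and -3.92), Plin3 (2.08 and -2.05), Pros1 (2.44 and -0.37), Sorl1 (5.11 and -1.36), Tlr3 (1.80 and -1.42), Tlr4 (1.49 and -1.17), mt-Nd3 (2.81 and -1.20). Lower in liver and higher in heart were Ahcy (-2.86 and 1.18), Apoa1 (-2.50 and 1.88), C8a (-2.15 and 0.80), Cyp4v3 (-3.15 and 1.76), Fads2 (-1.95 and 1.65), Gstp1 (-7.88 and 0.57), Masp2 (-1.95 and 1.60), Oat (-1.88 and 0.58), Otc (-0.69 and 1.12), Pgam1 (-2.22 and 0.50), Spp1 (-3.93 and 1.32), Ttr (-0.80 and 2.18), Xdh (-0.60 and 1.67), Xrcc5 (-0.62 and 0.33).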

How the results depend on the processing

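The liver count was 7039 (3621 higher and 3418 lower) without the size threshold and 1656 with a size threshold of 2, by construction; without it the heart count was 7068 and the count shared with the same sign 3749. Under the other settings tried the liver count lay between 3666 and 5264, and leaving out 1 library gave 4525 to 4678 in liver and 4149 to 4242 in heart. Centring libraries on their medians gave 2540 higher and 2033 lower, and quantile normalisation 2234 and 2215. In heart quantile normalisation gave 2144 and 2092, so the lead of lower genes there was reversed. A mouse group left with 1 library is assumed to vary like the other groups. Replicate numbers were shared by 2 pairs of livers, whose deviations correlated at 0.15 and -0.16. With only 2 mouse livers, their deviations from the mouse mean are mirror images. These correlations therefore cannot show whether the numbers pair the samples. A replicate block gave 4602 calls in liver and 4189 in heart. Of 258 named genes tested, 200 of the 211 called kept their call in all 14 settings. The report names the settings that ended the others' calls. These 14 settings leave out the filter on the mean of the species means and the filter that needs both species at least 1 above the minimum. Under the latter, genes near the minimum in 1 species are not tested. With limma-voom, whose scale is not compressed at low counts, 22 called genes had differences over 1.5 times as large and 0 had smaller ones by that factor. Alb, Arntl, Cat, Cpt1a, Cyp2e1, Fasn, Fgf21, Keap1, Slc2a5 and Ttr gained a call in at least 1 setting. No called gene changed sign, and the genes that did so were called neither before nor after: with libraries centred on their medians these were Cps1 0.034, Csf1r 0.015, Igf1 0.046, Mat1a 0.068; with quantile normalisation these were Apoe -0.24, Csf1r 0.029, Hnf4a -0.26, Hsp90ab1 -0.075; with the replicate block these were Acta1 0.033, Csf1r 0.038, Hnf4a -0.020, Ptprc 0.11; with limma-voom on recovered reads these were Mat1a 0.003. Leaving out 1 library moved uncalled genes over ranges that cross 0: Acta1 -0.81 to 0.39, Apoe -0.032 to 0.57, Ass1 -0.58 to 0.14, Ckm -0.35 to 0.91, Cp -0.32 to 0.096, Cps1 -0.16 to 0.082, Csf1r -0.23 to 0.18, Hnf4a -0.14 to 0.14, Hsp90ab1 -0.26 to 0.47, Igf1 -0.16 to 0.10, Mat1a -0.50 to 0.49, Ptprc -0.24 to 0.007, Tat -0.54 to 1.02. Precision is limited by the 2 mouse livers and, for genes near the minimum, by read depth.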

Other observations

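Several genes known from gut or kidney epithelium were read in all 4 naked mole-rat livers. They were singled out after their values were seen. Pgc, the stomach proenzyme progastricsin, had 1362, 1940, 2583 and 1557 reads in naked mole-rat replicates 1 to 4 and 0 in both mouse livers. Umod, uromodulin of the kidney tubule, had 957, 605, 1024 and 1172 reads against 0 in both mouse livers. Guca2b, the gut peptide uroguanylin, had 605, 364, 1985 and 660 against 0 in both, and Trpv6, an epithelial calcium channel, had 2404, 3258, 7156 and 4725 against 3 and 1. Replicate 3 was the highest for Pgc, Guca2b and Trpv6. Mean scaled reads in Damaraland mole-rat and guinea pig liver were 118 and 10.1 for Pgc and 3.5 and 5.4 for Trpv6. The stomach markers Gkn1, Atp4a and Gif had 0, 0, 0 and 0, then 0, 0, 0 and 1, then 4, 4, 4 and 4 reads in the same libraries, and the kidney marker Slc12a1 had 0, 0, 0 and 1.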
